A study of Mus musculus with 18 samples.

Results

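The 34 genes described here make cholesterol, sense it, move it inside the cell, or store and export it. They were taken by name from the textbook pathway in 5 arms: 8 genes of the mevalonate pathway, 11 of sterol synthesis proper, 4 that control the transcription factor SREBP2, 3 of cholesterol transport inside cells and 8 of storage and efflux. A probe set assigned to that gene alone was found for 31 of them, among 18193 genes with such a probe set on the array. Acat2 of the mevalonate pathway and Soat1 and Nr1h2 of the storage and efflux arm had none and have no value here. The brightest probe set on average over the 18 arrays stood for a gene, and sets marked _x_at, whose probes may match other transcripts, were avoided where another existed. For Hmgcs1, Fdft1 and Hsd17b7 this set aside a brighter _x_at set, which was also called lower in MEKi/CD40 against control.

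Cells build cholesterol from acetyl-CoA through mevalonate, the isoprenoids, squalene and lanosterol. When sterols run low in the endoplasmic reticulum, SCAP escorts the membrane-bound SREBP2 to the Golgi, where it is cut, and the freed part switches on the genes of synthesis and uptake. When sterols are plentiful, INSIG proteins hold SCAP back, and oxysterols activate the liver X receptors, which drive export genes such as Abca1 and Abcg1. Macrophages, which take up dying cells, are known for strong use of the export arm.

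The tumors were MC38, a mouse colon carcinoma line, grown under the skin of the flank of C57BL/6-Ly5.1 mice aged 6 to 12 weeks and taken on day 22 after inoculation. MEKi/CD40 mice (4 tumors) received 30 mg/kg of the MEK inhibitor GDC-0623 daily for about 2 weeks together with an agonistic anti-CD40 antibody (Ab). MEKi mice (5 tumors) received the inhibitor with a control Ab, anti-CD40 mice (4 tumors) the drug vehicle MCT with anti-CD40 Ab, and control mice (5 tumors) the vehicle with the control Ab. Antibodies were injected on treatment days 3, 5 and 7 and once more on the day before analysis, and each of the 18 arrays came from a piece of the tumor of a different animal. All values are log2 signals of Affymetrix Mouse430_2 arrays as deposited, on which 1 unit is a doubling and values below 3 were taken as floor. A gene was called where its Benjamini-Hochberg adjusted p over all 45037 probe sets was under 0.05 in limma.

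Tumor pieces mix cell types, so fewer cells of a type and less RNA per cell cannot be told apart. Of 10 epithelial markers, 9 (Epcam, Krt8, Krt18, Krt19, Krt7, Cldn4, Cldn7, Vil1 and Cdx2) were below the floor on all 18 arrays, so the labeled colon carcinoma could not be recognized by them. The mean log2 signal over 10 cycling-cell markers was 8.83 to 9.497 in MEKi/CD40, 9.67 to 10.20 in MEKi, 10.55 to 10.98 in anti-CD40 and 10.60 to 11.06 in control tumors. That over 11 fibroblast markers was 12.68 to 13.05 in MEKi/CD40, 11.08 to 11.75 in MEKi, 10.06 to 10.93 in anti-CD40 and 9.66 to 10.35 in control tumors. Adipocyte markers reached a mean of 10.62 in MEKi/CD40 tumor 2, 6.45 in MEKi/CD40 tumor 4 and 5.41 in anti-CD40 tumor 3, against 2.95 to 4.89 in the other tumors. MEKi/CD40 tumor 4 also stood apart in skeletal muscle, with a mean of 7.78 over 11 markers against 2.49 to 3.06 in all other tumors (Acta1 10.77 and Myh4 9.51 in that tumor, Myh2 below the floor on all 18 arrays).

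In MEKi/CD40 tumors most genes of both synthesis arms were low. Of the 31 measured genes 16 fell and 4 rose relative to control, while 9.37% of all probe sets fell and 5.5% rose (14.9% in all). The fallen genes were 5 of 7 in the mevalonate pathway, 9 of 11 in sterol synthesis, Srebf2 of the SREBP2 arm and Stard4 of the transport arm. In 16 of the 31 genes each of the 4 MEKi/CD40 tumors was lower, and in 5 higher, than any of the 5 control tumors. This held for 10.3% and 6.53% of all probe sets. The 16 were the fallen genes, which were called on the same values. The risen genes were Nr1h3 and Abca1 of the efflux arm, by more than 1 log2 unit, and Scap and Ebp, by less than 0.3. The median difference was -1.76 over the 18 synthesis genes and 0.80 over the 6 storage and efflux genes, against 0 over all probe sets tested. The shares and the median of 0 over all probe sets include dim ones, as 50.3 to 51.6% of values per array were below the floor. That median therefore does not describe bright probe sets. A filter on low values (log2 of at least 6 on at least 4 arrays) left 17421 probe sets and 28 genes. Of these, 46.9% of probe sets and 22 genes were called (17 lower and 5 higher).

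**Figure D1:**
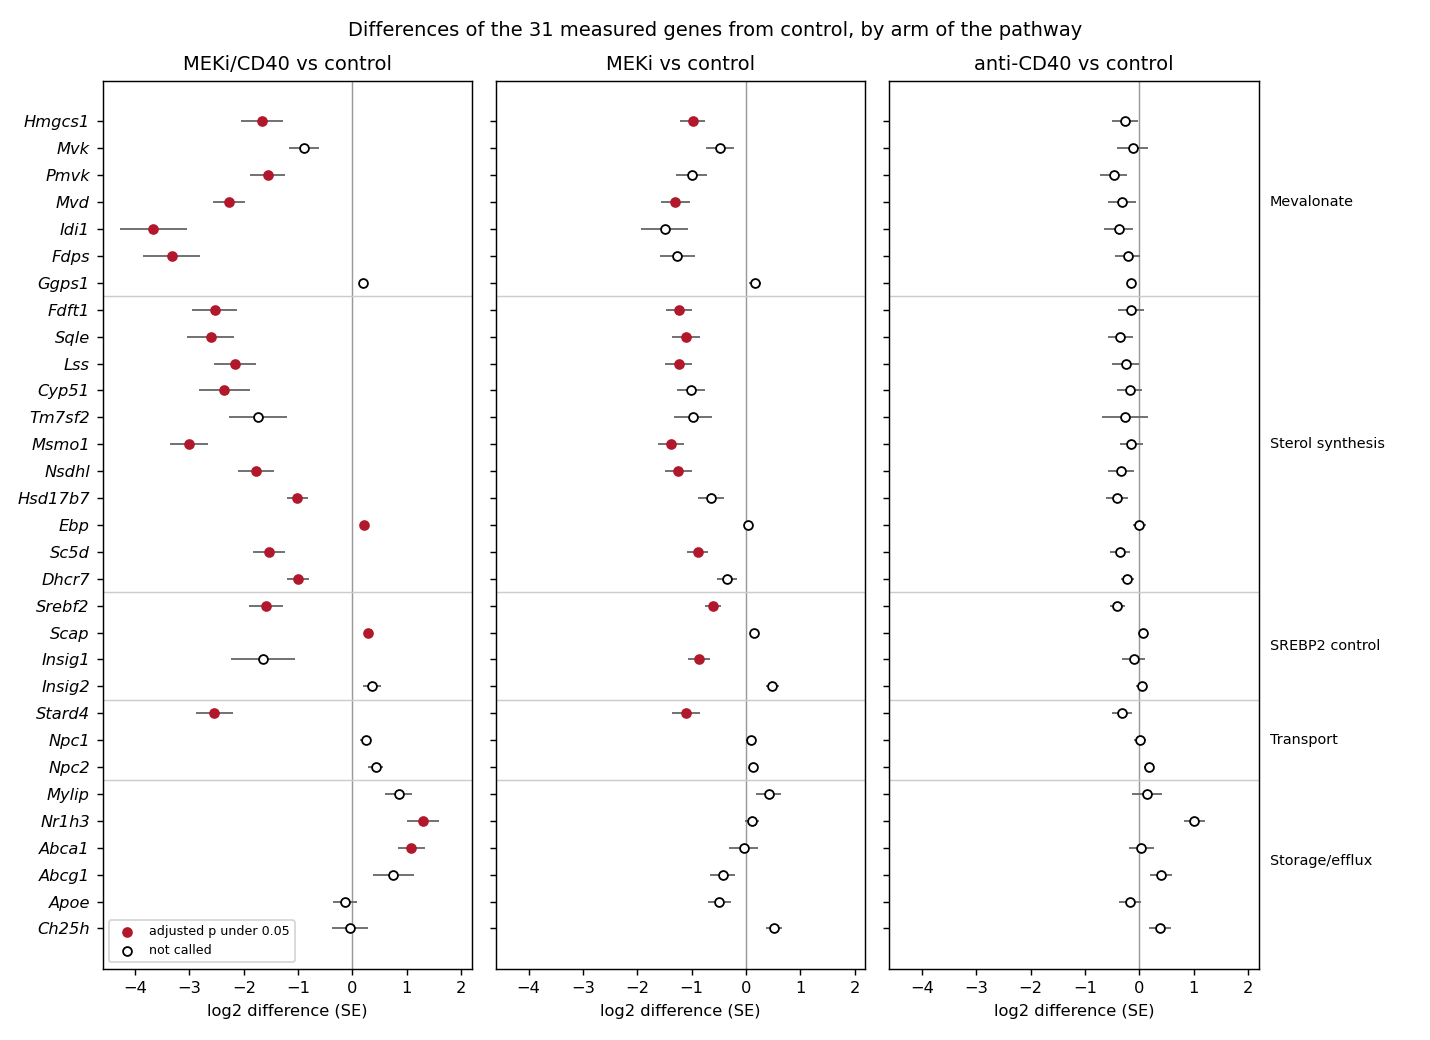
Differences of the 31 measured genes from control in log2 units (x axis, bars are SE), genes from top to bottom by arm, for MEKi/CD40, MEKi and anti-CD40 tumors from left to right. Filled points passed an adjusted p of 0.05 (limma): 20 genes for MEKi/CD40, 11 for MEKi and 0 for anti-CD40, with Idi1 the farthest to the left at -3.67.

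Promoter sequences are shown for 4 genes that fell and 1 that rose, since these genes moved together. A window from 250 bases before to 50 after the start site was held by RefSeq (GRCm38.p6) for 28 of the 34 genes, and none was at hand for Fdps, Fdft1, Sqle, Stard4, Npc1 and Abcg1. Both strands were searched for CCAAT, the box bound by NF-Y, which acts beside SREBP2 at sterol genes, for TCACNCCAC, a sterol element bound by SREBPs, and for a liver X receptor element, AGGTCA repeated after a gap of 4 bases. No match of 1 motif overlapped that of another. Matches stand in capitals, and those on the other strand read ATTGG.

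Hmgcs1, chr13:119690101-119690400, + strand: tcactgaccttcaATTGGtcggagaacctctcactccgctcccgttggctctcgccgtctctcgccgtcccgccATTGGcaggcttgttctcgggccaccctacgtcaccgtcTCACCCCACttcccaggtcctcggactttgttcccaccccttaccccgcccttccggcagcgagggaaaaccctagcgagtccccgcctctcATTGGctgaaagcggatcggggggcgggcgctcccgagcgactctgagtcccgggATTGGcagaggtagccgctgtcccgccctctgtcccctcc

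Idi1, chr13:8885356-8885655, + strand: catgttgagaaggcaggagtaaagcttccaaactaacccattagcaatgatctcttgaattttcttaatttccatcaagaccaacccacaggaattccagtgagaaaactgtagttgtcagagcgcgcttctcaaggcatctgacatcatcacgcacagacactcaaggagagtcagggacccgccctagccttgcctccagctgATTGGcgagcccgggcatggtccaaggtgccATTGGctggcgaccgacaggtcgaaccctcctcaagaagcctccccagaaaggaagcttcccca

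Msmo1, chr8:64733529-64733828, - strand: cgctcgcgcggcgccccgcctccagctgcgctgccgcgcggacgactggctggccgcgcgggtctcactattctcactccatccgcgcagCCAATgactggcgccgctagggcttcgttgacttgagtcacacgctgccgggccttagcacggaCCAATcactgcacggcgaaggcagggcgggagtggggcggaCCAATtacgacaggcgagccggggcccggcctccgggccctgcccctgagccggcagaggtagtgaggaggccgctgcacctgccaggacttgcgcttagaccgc

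Srebf2, chr15:82147019-82147318, + strand: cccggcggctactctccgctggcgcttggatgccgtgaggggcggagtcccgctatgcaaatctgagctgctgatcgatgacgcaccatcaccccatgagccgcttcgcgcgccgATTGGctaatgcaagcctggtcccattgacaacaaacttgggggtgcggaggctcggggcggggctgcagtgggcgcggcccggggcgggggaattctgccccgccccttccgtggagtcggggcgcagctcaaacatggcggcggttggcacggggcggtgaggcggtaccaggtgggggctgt

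Abca1, chr4:53159846-53160145, - strand: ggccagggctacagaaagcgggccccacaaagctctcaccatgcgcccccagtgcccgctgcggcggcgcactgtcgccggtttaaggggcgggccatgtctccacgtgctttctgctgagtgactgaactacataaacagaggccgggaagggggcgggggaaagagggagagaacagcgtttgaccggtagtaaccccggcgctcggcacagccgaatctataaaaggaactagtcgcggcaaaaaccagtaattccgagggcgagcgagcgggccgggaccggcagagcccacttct

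The Hmgcs1 window held 4 CCAAT boxes and the sterol element TCACCCCAC, which began at position -137 from the start site. Msmo1 held 3 boxes, Idi1 2, Srebf2 1 and Abca1 none. A CCAAT box was present in at least 1 window for 12 of 12 fallen genes that had any, against 41.1% of 27025 genes in the RefSeq table. It was also present for 4 of the 5 synthesis genes that did not fall or have no value, and for 2 of 7 storage and efflux genes. The sterol element was found for Hmgcs1 only, against 1.44% of all genes, and the liver X receptor element for none of the 28, against 0.01%. A match describes the letters of a window and is not a binding site, and no match says only that these letters are not in it.

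Of the 7 measured mevalonate genes 5 fell in MEKi/CD40 tumors. Hmgcs1 encodes HMG-CoA synthase, which opens the committed pathway. Its log2 signal was 10.72, 12.06, 10.37 and 11.35 in MEKi/CD40, 11.54, 12.08, 11.42, 12.18 and 11.82 in MEKi, 12.22, 12.78, 12.67 and 12.44 in anti-CD40 and 12.64, 12.49, 13.08, 13.37 and 12.37 in control tumors. The difference from control was -1.67 ± 0.38 in MEKi/CD40 (SE, n = 4 and 5, adjusted p = 0.0257) and -0.98 ± 0.23 in MEKi tumors (n = 5 and 5, adjusted p = 0.0413). Neither group overlapped control. In MEKi/CD40 the call was lost in 5 of 9 fits that left out 1 tumor, with an adjusted p of up to 0.0755.

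Of the kinases that phosphorylate mevalonate, Pmvk was called, and the call of Mvk depended on the probe set. Pmvk, phosphomevalonate kinase, had 6.91, 8.12, 7 and 7.47 in MEKi/CD40, 7.78, 8.06, 7.25, 8.6 and 8.01 in MEKi, 8.41, 8.86, 8.18 and 8.41 in anti-CD40 and 8.99, 8.68, 9.13, 9.53 and 8.36 in control tumors. It fell by 1.56 ± 0.32 in MEKi/CD40 (adjusted p = 0.0179, lost without MEKi/CD40 tumor 1 at 0.0525), whereas the MEKi difference of -0.998 ± 0.29 was not called (adjusted p = 0.075). Mvk, mevalonate kinase, stood at 6.28 ± 0.26 in MEKi/CD40 and 7.17 ± 0.53 in control tumors (SD), and its difference of -0.89 ± 0.28 was not called (adjusted p = 0.0823). Its other probe set was called lower (-1.41, adjusted p = 0.0153), as was the mean over both (-1.15, adjusted p = 0.0303).

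Mvd decarboxylates mevalonate diphosphate to the first isoprenoid, and was the leading gene of its arm by p. Its values were 5.73, 6.26, 5.73 and 6.51 in MEKi/CD40, 6.88, 7.1, 6.51, 7.48 and 7.17 in MEKi, 8, 8.29, 7.92 and 7.84 in anti-CD40 and 8.19, 7.95, 8.45, 9.12 and 7.92 in control tumors. It was 4.82-fold lower in MEKi/CD40 (log2 -2.27 ± 0.30, adjusted p = 0.00329) and 2.46-fold lower in MEKi tumors (log2 -1.30 ± 0.27, adjusted p = 0.0256), with no overlap with control in either. Idi1, the isomerase that makes isoprenoid units interchangeable, moved farthest of all 31 genes. Its values were 6.6, 8.94, 6.46 and 8.61 in MEKi/CD40, 9.28, 10.34, 8.76, 10.87 and 9.88 in MEKi, 10.94, 11.17, 10.93 and 10.71 in anti-CD40 and 11.51, 11.05, 11.36, 12.04 and 10.63 in control tumors. The MEKi/CD40 tumors thus lay in a low and a less low pair, and Idi1 was 12.7-fold lower than in control on average (log2 -3.67 ± 0.62, adjusted p = 0.00826). In MEKi tumors the difference was -1.49 ± 0.43 and was not called (adjusted p = 0.0748).

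Fdps joins the isoprenoid units to farnesyl diphosphate, the branch point to sterols and prenylated proteins. It had 9.1, 10.79, 8.81 and 11.04 in MEKi/CD40, 11.62, 12.21, 11.21, 12.82 and 12.16 in MEKi, 12.98, 13.31, 13.14 and 12.77 in anti-CD40 and 13.39, 12.9, 13.35, 13.86 and 12.82 in control tumors. This was 10.05-fold lower in MEKi/CD40 tumors (log2 -3.33 ± 0.53, adjusted p = 0.00686), and all 4 also lay below all 5 MEKi tumors. The MEKi difference from control was -1.26 ± 0.33 (adjusted p = 0.0528). Ggps1 makes the geranylgeranyl diphosphate used for prenylation, off the sterol branch. It stood at 9.59 ± 0.07 in MEKi/CD40 and 9.40 ± 0.10 in control tumors (adjusted p = 0.0595). Its probe sets disagreed: of the other 3, 2 were called lower in MEKi/CD40 (-0.33 and -0.51) and 1 higher (0.27), so no direction is given for this gene.

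**Figure D2:**
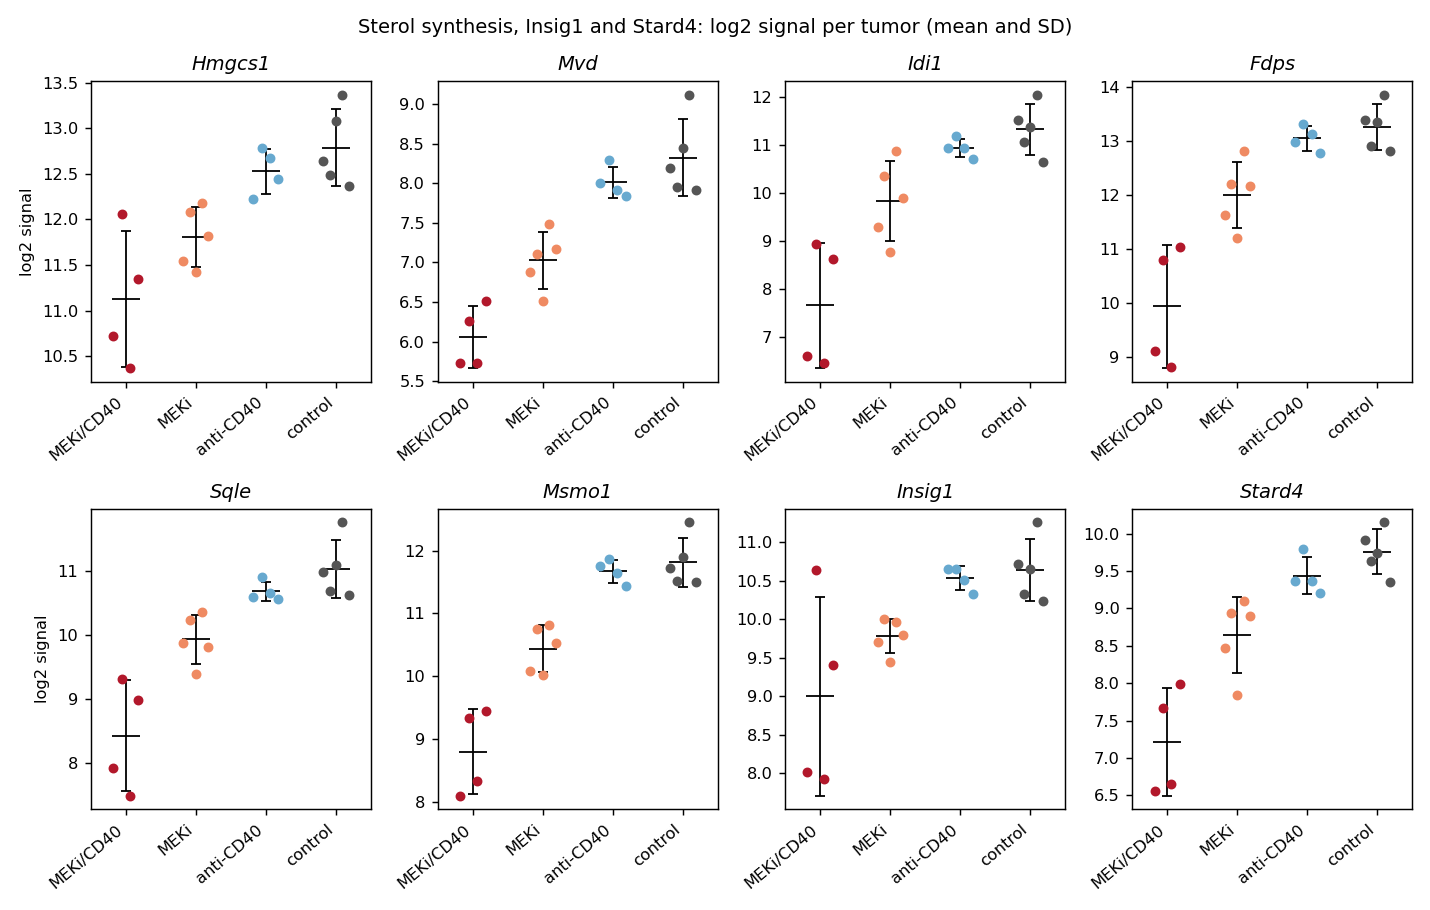
Log2 signal (y axis) of 6 synthesis genes, Insig1 and Stard4 in each tumor, with group mean and SD, for MEKi/CD40, MEKi, anti-CD40 and control tumors from left to right. Msmo1 ran from 8.10 to 9.44 in MEKi/CD40 and from 11.5 to 12.45 in control tumors, and the MEKi points lie between them without reaching either.

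Of the 11 sterol synthesis genes 9 fell in MEKi/CD40 tumors, Ebp rose slightly and Tm7sf2 was not called. Squalene is made by Fdft1, squalene synthase, the first enzyme committed to sterols. It stood at 7.51, 8.66, 6.92 and 8.5 in MEKi/CD40, 8.99, 9.51, 8.79, 9.45 and 9.31 in MEKi, 10.36, 10.5, 10.26 and 10.04 in anti-CD40 and 10.44, 10.02, 10.49, 11.16 and 10.07 in control tumors. Fdft1 fell in both groups given the inhibitor, by 2.54 ± 0.42 in MEKi/CD40 (adjusted p = 0.00776) and by 1.23 ± 0.24 in MEKi tumors (adjusted p = 0.0225). Sqle, squalene epoxidase, is a rate-limiting step of the pathway. Its log2 signal was 7.92, 9.32, 7.49 and 8.98 in MEKi/CD40, 9.88, 10.23, 9.39, 10.36 and 9.82 in MEKi, 10.6, 10.9, 10.66 and 10.57 in anti-CD40 and 10.99, 10.69, 11.1, 11.76 and 10.63 in control tumors. It was 6.09-fold lower in MEKi/CD40 (adjusted p = 0.00783) and 2.14-fold lower in MEKi tumors (adjusted p = 0.0395) than in control, and the MEKi/CD40 values all lay below the MEKi values.

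Lss closes the ring to lanosterol. Tumors of the MEKi/CD40 group held 6.85, 7.92, 6.32 and 7.71, MEKi tumors 7.97, 8.27, 7.53, 8.61 and 8.24, anti-CD40 tumors 8.9, 9.47, 9.27 and 8.81 and control tumors 9.31, 9.22, 9.38, 10.04 and 8.87. The differences from control were -2.16 ± 0.38 (MEKi/CD40, adjusted p = 0.01) and -1.24 ± 0.26 (MEKi, adjusted p = 0.026). Cyp51 is the lanosterol demethylase, a cytochrome P450. MEKi/CD40 tumors had 8.32, 9.94, 8.14 and 9.88, MEKi tumors 10.31, 10.7, 9.84, 10.86 and 10.44, anti-CD40 tumors 11.18, 11.51, 11.24 and 11.09 and control tumors 11.47, 11.2, 11.53, 12.07 and 10.89. The fall of 2.36 ± 0.47 in MEKi/CD40 was called (adjusted p = 0.0154), and the MEKi difference of -1.002 ± 0.26 was not (adjusted p = 0.052), although MEKi and control did not overlap.

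Msmo1, the sterol methyl oxidase, gave the smallest p of all fallen members. Its values were 8.1, 9.33, 8.34 and 9.44 in MEKi/CD40, 10.09, 10.75, 10.02, 10.82 and 10.53 in MEKi, 11.75, 11.86, 11.64 and 11.43 in anti-CD40 and 11.73, 11.51, 11.9, 12.45 and 11.5 in control tumors. MEKi/CD40, MEKi and control formed 3 separate ranges. It was 8.09-fold lower in MEKi/CD40 (log2 -3.02 ± 0.35, adjusted p = 0.0023) and 2.60-fold lower in MEKi tumors (log2 -1.38 ± 0.24, adjusted p = 0.0144), and these calls held in 9 of 9 and 10 of 10 fits that left out 1 tumor. Nsdhl and Hsd17b7 act with Msmo1 in removing the methyl groups. Nsdhl was at 7.93, 8.91, 7.55 and 8.34 in MEKi/CD40, 8.53, 8.64, 8.26, 9.15 and 9 in MEKi, 9.73, 9.73, 9.54 and 9.47 in anti-CD40 and 9.99, 9.67, 10.05, 10.65 and 9.43 in control tumors, called lower in MEKi/CD40 (-1.78 ± 0.34, adjusted p = 0.0132) and MEKi (-1.24 ± 0.26, adjusted p = 0.0257). Hsd17b7 was at 3.92, 4.23, 4.25 and 4.47 in MEKi/CD40, 4.35, 4.27, 4.25, 5.04 and 5.04 in MEKi, 5.1, 4.71, 4.85 and 4.62 in anti-CD40 and 5.04, 5.17, 5.34, 5.77 and 4.84 in control tumors. It was called lower in MEKi/CD40 (-1.01 ± 0.20, adjusted p = 0.0147) and not in MEKi (-0.64 ± 0.24, adjusted p = 0.155).

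The last steps turn zymosterol-type intermediates into cholesterol. Sc5d, the lathosterol oxidase, read 8.34, 9.36, 8.14 and 8.77 in MEKi/CD40, 9.11, 9.44, 8.93, 9.53 and 9.44 in MEKi, 9.77, 9.91, 9.9 and 9.74 in anti-CD40 and 10.31, 9.84, 10.24, 10.7 and 9.81 in control tumors. It fell by 1.53 ± 0.29 in MEKi/CD40 (adjusted p = 0.0138) and by 0.89 ± 0.20 in MEKi tumors (adjusted p = 0.032). Dhcr7, the reductase that yields cholesterol, read 7.15, 7.72, 6.92 and 7.72 in MEKi/CD40, 7.98, 8.11, 7.44, 8.38 and 8.23 in MEKi, 8.28, 8.26, 8.13 and 7.96 in anti-CD40 and 8.41, 8.32, 8.52, 8.6 and 8.05 in control tumors. Its difference of -1.003 ± 0.20 in MEKi/CD40 (adjusted p = 0.0166) was lost without MEKi/CD40 tumor 1 (0.0513), and the MEKi difference was -0.35 ± 0.18 (adjusted p = 0.35).

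Ebp and Tm7sf2 were the exceptions of the arm. Ebp, the sterol isomerase, was slightly higher, at 10.66, 10.58, 10.66 and 10.64 in MEKi/CD40, 10.63, 10.44, 10.44, 10.4 and 10.41 in MEKi, 10.05, 10.57, 10.45 and 10.65 in anti-CD40 and 10.42, 10.47, 10.42, 10.4 and 10.44 in control tumors. That rise of 0.21 ± 0.02 amounts to 1.15-fold (adjusted p = 0.00159), and the spread of Ebp among anti-CD40 tumors alone was wider, with an SD of 0.27. Tm7sf2, a sterol reductase, was dim throughout, with 2 MEKi/CD40 values below the floor. It averaged 3.02 ± 0.92 in MEKi/CD40 and 4.76 ± 0.75 in control tumors (SD) and was not called (adjusted p = 0.0757).

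Among the genes that control SREBP2, the factor and its escort went opposite ways. Srebf2, which encodes SREBP2 and is itself a target of it, had 6.79, 7.85, 6.66 and 7.9 in MEKi/CD40, 8.31, 8.37, 7.98, 8.58 and 8.15 in MEKi, 8.46, 8.61, 8.57 and 8.28 in anti-CD40 and 8.69, 8.79, 8.89, 9.32 and 8.73 in control tumors. It was 3.00-fold lower in MEKi/CD40 (log2 -1.58 ± 0.31, adjusted p = 0.0149) and 1.52-fold lower in MEKi tumors (log2 -0.61 ± 0.15, adjusted p = 0.0459). The MEKi call held in 1 of 10 fits that left out 1 tumor. The other Srebf2 probe set was called neither in MEKi/CD40 (-0.87, adjusted p = 0.131) nor in MEKi (-0.39, adjusted p = 0.278). Anti-CD40 tumors lay below control too, without overlap, but the difference of -0.40 ± 0.14 was not called (adjusted p = 0.815). Scap had 9.69, 9.62, 9.56 and 9.64 in MEKi/CD40, 9.52, 9.52, 9.35, 9.45 and 9.59 in MEKi, 9.42, 9.33, 9.32 and 9.52 in anti-CD40 and 9.28, 9.38, 9.26, 9.38 and 9.37 in control tumors. Its rise in MEKi/CD40 was narrow but clear of the spread, 1.23-fold (log2 0.29 ± 0.04, adjusted p = 0.003), and that of 0.15 ± 0.05 in MEKi was not called (adjusted p = 0.0931).

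Insig1, a retention protein that is itself induced by SREBP2, was spread widely in the MEKi/CD40 group. It had 8.02, 10.64, 7.92 and 9.41 in MEKi/CD40, 9.7, 10.01, 9.45, 9.96 and 9.79 in MEKi, 10.66, 10.66, 10.51 and 10.33 in anti-CD40 and 10.72, 10.33, 10.65, 11.26 and 10.24 in control tumors. MEKi/CD40 tumor 2, with the highest adipocyte markers, lay within the control range, the other 3 below it, and the mean difference of -1.64 ± 0.59 was not called (adjusted p = 0.12). Without the 3 tumors highest in adipocyte markers the difference was -2.67 with an adjusted p of 0.0116. That fit drops MEKi/CD40 tumors 2 and 4, the highest of the group in Insig1, and leaves only tumors 1 and 3, the lowest. The fall in MEKi tumors, 0.86 ± 0.20, was called (adjusted p = 0.0391). Insig2, a retention protein not driven by SREBP2, averaged 9.57 ± 0.32 in MEKi/CD40, 9.70 ± 0.22 in MEKi and 9.21 ± 0.19 in control tumors (SD), with adjusted p of 0.25 and 0.0515 for the drug groups in that order. Its other 2 probe sets were both called higher in MEKi (0.596 and 0.61, adjusted p = 0.0179 and 0.0303) and neither in MEKi/CD40.

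Of the 3 transport genes only Stard4 was called. Stard4 carries cholesterol between membranes through the cytosol and is a known SREBP2 target. It had 6.56, 7.67, 6.65 and 7.99 in MEKi/CD40, 8.47, 8.94, 7.84, 9.1 and 8.9 in MEKi, 9.37, 9.79, 9.37 and 9.21 in anti-CD40 and 9.91, 9.64, 9.74, 10.15 and 9.35 in control tumors. It was 5.82-fold lower in MEKi/CD40 (log2 -2.54 ± 0.34, adjusted p = 0.00368) and 2.16-fold lower in MEKi tumors (log2 -1.11 ± 0.26, adjusted p = 0.0384). Npc1 and Npc2 carry cholesterol out of the lysosome. Npc1 averaged 9.72 ± 0.19 in MEKi/CD40 and 9.48 ± 0.12 in control tumors, and Npc2 13.99 ± 0.27 in MEKi/CD40 and 13.56 ± 0.17 in control (SD). Neither difference was called (adjusted p = 0.189 for Npc1 and 0.0982 for Npc2).

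No gene of the storage and efflux arm was called lower, and 2 of 6 were called higher in MEKi/CD40 tumors. Nr1h3 encodes the liver X receptor alpha and Abca1 the transporter that hands cholesterol to apolipoproteins. Nr1h3 had 4.95, 5.83, 6.37 and 5.24 in MEKi/CD40, 4.46, 4.57, 4.2, 4.22 and 4.62 in MEKi, 5.28, 4.8, 5.76 and 5.42 in anti-CD40 and 4.61, 4.11, 4.4, 4.17 and 4.22 in control tumors. It was 2.45-fold higher in MEKi/CD40 tumors (log2 1.30 ± 0.29, adjusted p = 0.0235). All anti-CD40 tumors also lay above control, by 1.01 ± 0.20 (adjusted p = 0.458, unadjusted p = 0.00118 in limma), whereas the MEKi difference was 0.11 ± 0.12. Abca1 had 12.8, 12.45, 13.35 and 12.78 in MEKi/CD40, 11.99, 11.41, 11.87, 11.04 and 12.27 in MEKi, 11.46, 11.86, 11.75 and 12.13 in anti-CD40 and 11.37, 11.81, 11.47, 11.76 and 12.39 in control tumors. It was 2.12-fold higher in MEKi/CD40 (log2 1.09 ± 0.25, adjusted p = 0.0281), with all 4 tumors above every tumor of the other groups. These calls were lost in 5 of 9 fits that left out 1 tumor for Nr1h3 (adjusted p up to 0.068) and in 6 of 9 for Abca1 (up to 0.0699). With a block for the low or high number in the sample titles neither was called (adjusted p = 0.129 for Nr1h3 and 0.0773 for Abca1), and the mean over the 3 probe sets of Abca1 was not called either (0.78, adjusted p = 0.157). Without the tumors highest in adipocyte markers, which leaves 2 MEKi/CD40 tumors, adjusted p was 0.116 for Nr1h3 and 0.0776 for Abca1.

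Mylip, a ubiquitin ligase that removes lipoprotein receptors from the cell surface, is a liver X receptor target. It had 10.02, 10.17, 10.01 and 10.07 in MEKi/CD40, 9.69, 9.34, 9.63, 9.66 and 9.83 in MEKi, 8.95, 9.44, 9.45 and 9.59 in anti-CD40 and 8.53, 9.41, 9.23, 9.01 and 9.89 in control tumors. All MEKi/CD40 tumors lay above all others, and the difference from control was 0.85 ± 0.25 (adjusted p = 0.0635). Abcg1 exports cholesterol to lipoprotein particles. Its values were 9, 9.27, 10.62 and 9.03 in MEKi/CD40, 8.25, 8.45, 7.74, 8.26 and 8.82 in MEKi, 8.89, 9.13, 9.39 and 9.12 in anti-CD40 and 8.25, 9.12, 8.47, 8.8 and 9.01 in control tumors, with MEKi/CD40 tumor 3 far above the rest (adjusted p = 0.291 against control). Apoe, an apolipoprotein that accepts exported cholesterol, averaged 14.26 ± 0.41 in MEKi/CD40 and 14.40 ± 0.26 in control tumors (adjusted p = 0.873). Ch25h, which makes an oxysterol from cholesterol, averaged 11.07 ± 0.68 in MEKi/CD40 and 11.11 ± 0.30 in control tumors (SD, adjusted p = 1). MEKi/CD40 tumor 3 was the highest of its group in 4 of these 6 genes, and the mean over 15 macrophage markers was 11.42 in that tumor against 9.82 to 10.33 in the other MEKi/CD40 and 10.01 to 10.33 in control tumors. Of those 15 markers 1 fell and 1 rose in MEKi/CD40 against control, while in MEKi 6 fell and 0 rose (median -0.74), and Marco was below the floor on all arrays. The part of macrophages in these values was not tested.

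**Figure D3:**
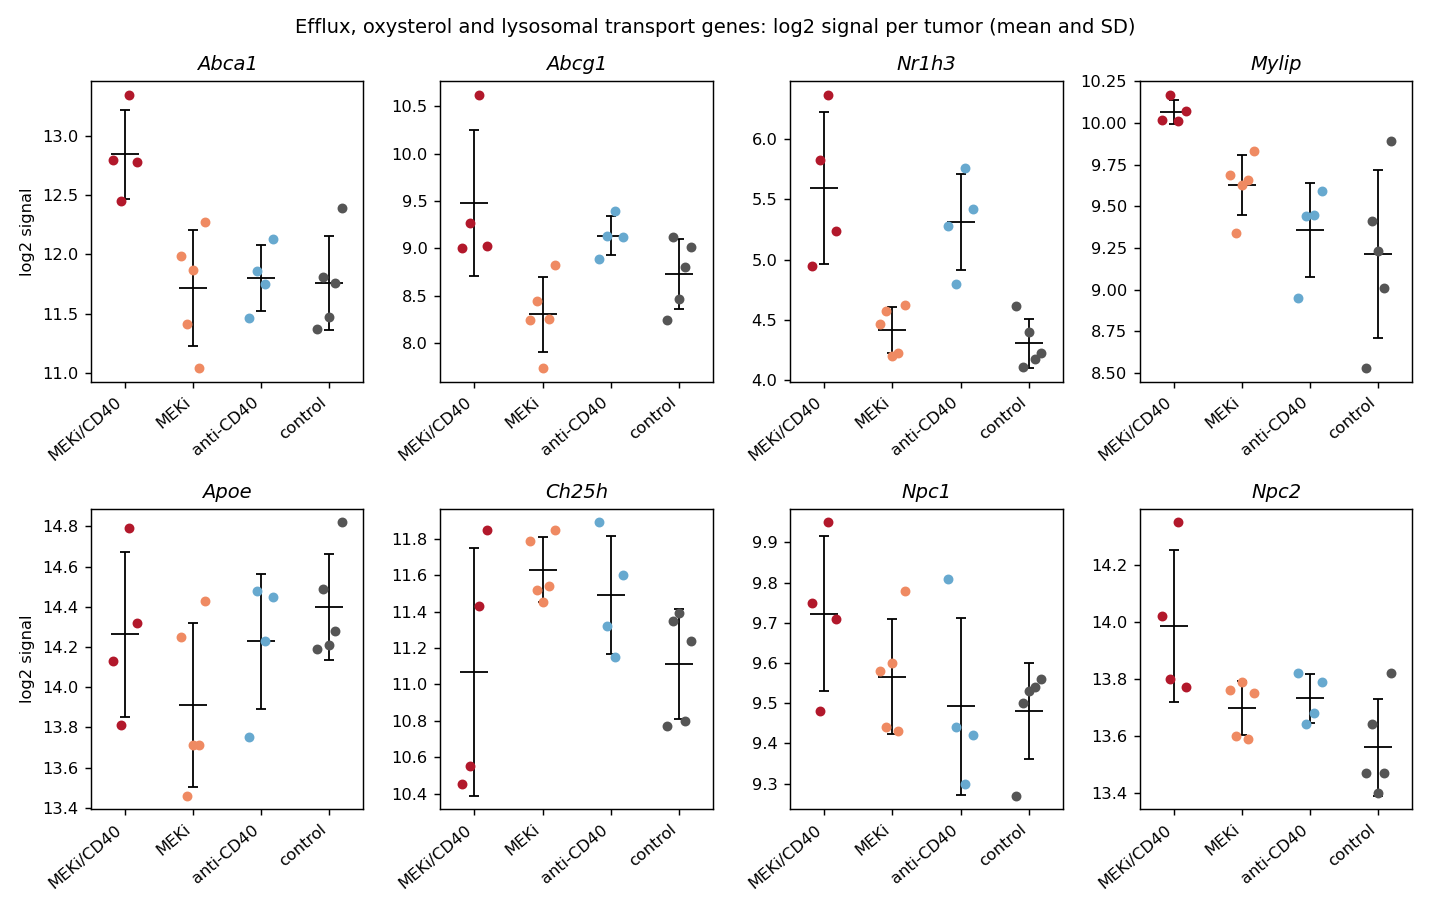
Log2 signal (y axis) of 6 efflux and oxysterol genes and the lysosomal transporters Npc1 and Npc2 in each tumor, with group mean and SD, groups in the order MEKi/CD40, MEKi, anti-CD40 and control. Abca1 and Mylip lie above all other groups in MEKi/CD40 tumors, Nr1h3 is high in MEKi/CD40 and anti-CD40, and Apoe overlaps throughout.

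With the inhibitor alone fewer genes were called, and the median difference of the synthesis genes from control was smaller. In MEKi tumors 11 of 31 genes fell and 0 rose relative to control, against 3.83% and 3.99% of all probe sets (7.83% in either direction). These were 2 mevalonate genes (Hmgcs1 and Mvd), 6 sterol genes (Fdft1, Sqle, Lss, Msmo1, Nsdhl and Sc5d), Srebf2, Insig1 and Stard4. The median over the 18 synthesis genes was -1, and that over the 6 storage and efflux genes 0.03. With the mean over the probe sets of each gene, Insig2 was called higher (0.56, adjusted p = 0.0242), and Sc5d and Srebf2 were not called (adjusted p = 0.0515 and 0.11). Of the 31 genes 12 were lower and 1 (Ch25h) higher in every MEKi tumor than in any control tumor, against 4.57% and 4.61% of all probe sets. Calls at this group size were easily lost. Without control tumor 1, control tumor 3 or MEKi tumor 1, 1 gene, Msmo1, was left. The count was 2 without MEKi 2, 5 without control 2 or MEKi 3, and 6 without control 4 or MEKi 5. In these fits 3.73 to 5.94% of all probe sets were called. After the filter on low values 17 of 28 genes were called (15 lower and 2 higher), against 33.7% of the probe sets left.

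With the antibody alone no gene was called. In anti-CD40 tumors 0 of 31 genes passed, as did 0% of all probe sets, and 3 (Ggps1, Srebf2 and Nr1h3) had an unadjusted p under 0.05 in limma. Srebf2 was lower and Nr1h3 higher in every anti-CD40 tumor than in any control tumor, against 1.05% and 0.637% of all probe sets. The synthesis median was -0.26, with 17 of 18 genes below control. In fits that left out 1 tumor this median ran from -0.37 (without control 5) to -0.12 (without control 4).

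The combination was also set against each single treatment. Relative to anti-CD40 tumors 12 of 31 genes fell and 4 rose in MEKi/CD40 tumors, against 7.19% and 4.42% of all probe sets (11.6% in all). In 17 genes every MEKi/CD40 tumor was lower, and in 4 higher, than any anti-CD40 tumor, against 10.8% and 7.6% of all probe sets. The fallen were Mvk, Mvd, Idi1, Fdps, Fdft1, Sqle, Lss, Cyp51, Msmo1, Nsdhl, Sc5d and Stard4, the risen Ggps1 (by its brightest probe set), Scap, Mylip and Abca1, with a synthesis median of -1.45. Mylip was higher by 0.71 ± 0.14 (adjusted p = 0.0251) and Abca1 by 1.05 ± 0.23 (adjusted p = 0.0333), whereas Nr1h3 differed by 0.28 ± 0.36 (adjusted p = 0.773). The count was 3 without anti-CD40 tumor 2, 4 without anti-CD40 3 and 5 without MEKi/CD40 1. It was 6 without anti-CD40 1, 8 without anti-CD40 4 and 10 without MEKi/CD40 4 (6 to 8.54% of all probe sets over these fits). It was 8, all lower, without the 3 tumors highest in adipocyte markers, which leaves 2 MEKi/CD40 tumors (0.904% of all probe sets were called there). With the mean over probe sets Abca1 was not called (0.63, adjusted p = 0.168). After the filter on low values 20 of 28 genes were called (16 lower and 4 higher), against 40.7% of the probe sets left.

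Relative to MEKi tumors 0 of 31 genes were called in MEKi/CD40 tumors, against 2.5% of all probe sets (1.77% lower and 0.737% higher), although 19 had an unadjusted p under 0.05 in limma. The synthesis median was -0.73 and the storage and efflux median 0.78. Fdps, Fdft1, Sqle, Msmo1 and Srebf2 were lower, and Mylip, Nr1h3, Abca1 and Abcg1 higher, in every MEKi/CD40 tumor than in any MEKi tumor (5 and 4 of 31, against 5.8% and 3.14% of all probe sets). Msmo1 came nearest to the threshold among them, at -1.64 ± 0.34 (adjusted p = 0.0582), and Mylip followed at 0.44 ± 0.09 (adjusted p = 0.0612). Other fits gave calls here: 12 genes with all 18 arrays in 1 fit (9 lower, 3 higher), where 9.52% of all probe sets were called, and 11 of 28 after a filter on low values (8 lower, 3 higher), where 16.6% of the 17421 probe sets left were called.

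An interaction term over the 4 groups asked whether the combined log2 effect departed from the added effects of inhibitor and antibody. It was called for 0 of 31 genes, against 2.64% of all probe sets (1.58% below and 1.06% above the sum), with 9 at an unadjusted p under 0.05 in limma. The largest deviations from the sum were -1.86 ± 0.63 for Fdps, -1.79 ± 0.75 for Idi1 and -1.49 ± 0.41 for Msmo1 (adjusted p = 0.146, 0.268 and 0.0687 in that order), and that of Abca1 was 1.09 ± 0.37 (adjusted p = 0.154). Without the 3 tumors highest in adipocyte markers, 8 genes were called, all with lower values than the sum: Idi1, Fdps, Fdft1, Sqle, Cyp51, Msmo1, Srebf2 and Insig1. In that fit 2.29% of all probe sets were called, and the 2 MEKi/CD40 tumors left were 1 and 3, the lowest in most of these genes.

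Within each group the fallen genes shared their highest and lowest tumors. Of the 16 genes, control tumor 4 was the highest of its group in 16 and control tumor 5 the lowest in 14. MEKi tumor 4 was the highest in 15 and MEKi tumor 3 the lowest in 16, and anti-CD40 tumor 2 was the highest in 13. Of the MEKi/CD40 group, tumors 1 and 3 both lay below tumors 2 and 4 in 15 of 16 genes. Tumors 2 and 4 were those with the most adipocyte marker signal, and tumor 4 held the muscle signal. The part of fat and muscle in this split was not tested. Without them and anti-CD40 tumor 3, 18 genes (7.64% of all probe sets) were called in MEKi/CD40 against control and the synthesis median was -2.33. For all 16 genes the group means stood in the order MEKi/CD40, MEKi, anti-CD40, control from low to high.

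**Figure D4:**
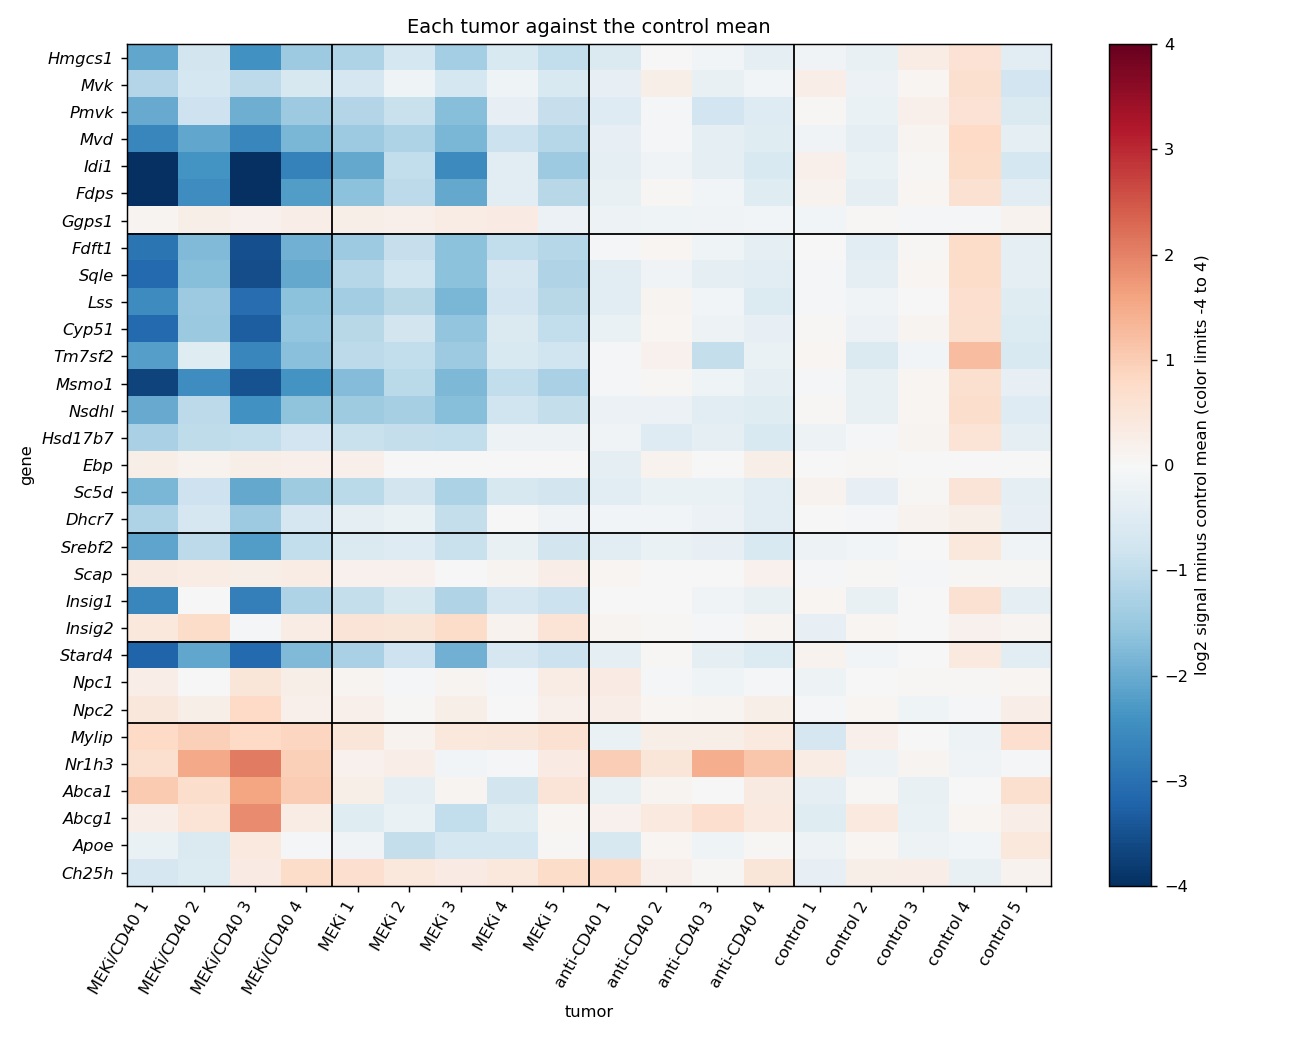
Log2 signal of each gene (rows, by arm) in each tumor (columns) minus the control mean, blue for lower and red for higher, with colors ending at -4 and 4 (Idi1 and Fdps in MEKi/CD40 tumors 1 and 3 lie beyond the blue end). The blue block of synthesis genes is deepest in MEKi/CD40 tumors 1 and 3, and control tumor 4 is red in nearly all of it.

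Averaged over its genes, each arm can be followed across the 4 groups. The mean log2 signal over the 7 mevalonate genes was 8.29 ± 0.62 in MEKi/CD40, 9.27 ± 0.40 in MEKi, 9.90 ± 0.17 in anti-CD40 and 10.17 ± 0.38 in control tumors (SD). Over the 11 sterol genes it was 7.59 ± 0.58 in MEKi/CD40, 8.46 ± 0.30 in MEKi, 9.12 ± 0.13 in anti-CD40 and 9.37 ± 0.38 in control tumors. Over the 6 storage and efflux genes it was 10.55 ± 0.38 in MEKi/CD40, 9.93 ± 0.25 in MEKi, 10.22 ± 0.15 in anti-CD40 and 9.92 ± 0.25 in control tumors. Between groups the cycling-cell markers moved with the synthesis arms: 10 of 10 were called lower in both MEKi/CD40 and MEKi against control, and 0 in anti-CD40. Within groups this varied. In MEKi/CD40, tumor 3 had the lowest sterol mean (6.99) and the highest cycling-cell mean (9.497). Tumor 2 had the highest sterol mean (8.20) and the lowest cycling-cell mean (8.83). In MEKi tumors 1 to 5 the sterol means were 8.32, 8.56, 8.02, 8.80 and 8.58. Their cycling-cell means were 9.67, 10.20, 9.675, 10.18 and 10.06. Control tumor 5 was the lowest of its group in both (8.97 and 10.60), and control tumor 4 had the highest sterol mean (9.96) with a cycling-cell mean of 10.80. Of the 11 fibroblast markers 10 were called higher in MEKi/CD40 and 5 in MEKi, and of the 9 adipocyte markers 0 and 1. No gene of these 3 lists was below the floor on all arrays. The part of cell composition and of cycling cells in the fall of the synthesis genes was not tested.

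**Figure D5:**
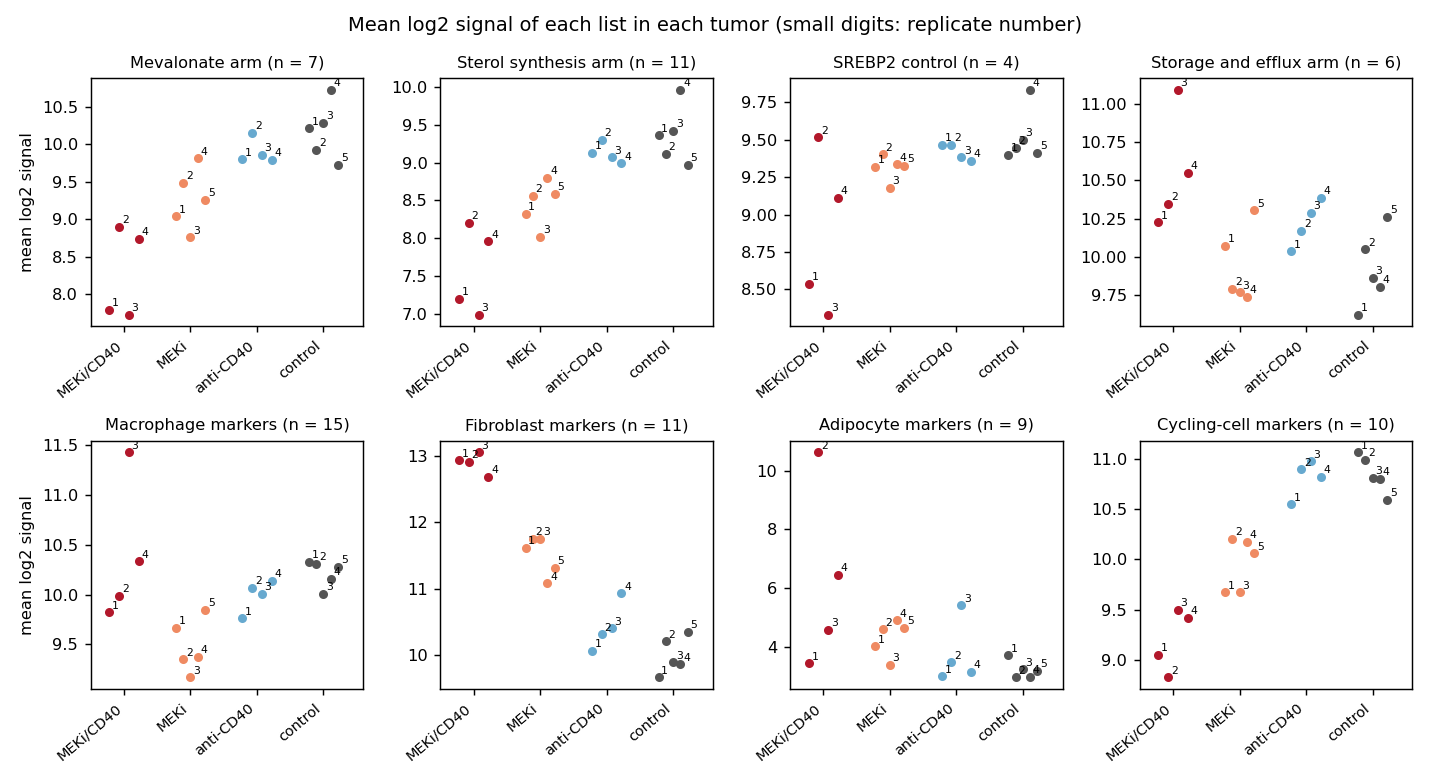
Mean log2 signal (y axis) of 4 arms of the pathway (top) and of 4 marker lists (bottom) in each tumor, digits giving the replicate number, for MEKi/CD40, MEKi, anti-CD40 and control tumors from left to right. The mevalonate and sterol means step up from MEKi/CD40 to control, while the fibroblast mean steps down. The cycling-cell mean rises from MEKi/CD40 through MEKi to anti-CD40, and anti-CD40 and control overlap (means 10.81 and 10.85).

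The sample titles carry numbers that fall in 3 runs of 6 tumors, and what they stand for is not stated. The first run holds all anti-CD40 tumors with MEKi 1 and 2, the middle run all MEKi/CD40 tumors with control 1 and 2, and the last run control 3 to 5 and MEKi 3 to 5. MEKi/CD40 thus shares no run with anti-CD40 or MEKi, nor anti-CD40 with control, so run and treatment cannot be told apart in those comparisons. A block that parted the last run (the high series) from the other runs (the low series) left 6 genes called in MEKi/CD40 against control, where 8.57% of all probe sets were called: Mvd, Fdps, Msmo1 and Stard4 lower, and Scap and Ebp higher. With the 3 runs as a block, a setting chosen after seeing the data, 0 genes were called in MEKi against control. In that fit 0.0688% of all probe sets were called. The block of low and high series left 5 genes, all lower, with 6.07% of all probe sets called. For MEKi/CD40 against control both blocks are the same fit, since those tumors lie in the middle and last runs only. Within the middle run alone, with 2 control tumors, 0 genes were called in MEKi/CD40, and within the last run 0 in MEKi (1.58% and 0.02% of all probe sets). The synthesis median was -1.57 for MEKi/CD40 within the middle run and -1.13 for MEKi within the last run.

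Other sterol genes went both ways. Of 34 further sterol and lipoprotein genes measured, 4 fell and 8 rose in MEKi/CD40 against control (9.37% and 5.5% of all probe sets), and 3 fell and 4 rose in MEKi (3.83% and 3.99%). The 6 with the smallest p in MEKi/CD40 were Pltp, Lipa, Lrp1, Lbr, Tmem97 and Cyp7b1. Lbr, a nuclear envelope protein with the same sterol reductase activity as Tm7sf2, fell by 1.02 ± 0.16 (adjusted p = 0.00563), and Tmem97, a sterol-regulated membrane protein that binds Npc1, fell by 1.37 ± 0.23 (adjusted p = 0.0079). Lipa, the lysosomal acid lipase that frees cholesterol from its esters, was higher by 0.56 ± 0.07 (adjusted p = 0.00296), and the endocytic receptor Lrp1 by 1.19 ± 0.16 (adjusted p = 0.00341). Pltp, a plasma phospholipid transfer protein, had 12.05, 12.79, 12.74 and 12.31 in MEKi/CD40 against 10.11, 10.45, 9.91, 10.58 and 10.43 in control tumors, a difference of 2.18 ± 0.20 (adjusted p = 0.00131). Cyp7b1, an oxysterol hydroxylase, was higher by 3.56 ± 0.67 (adjusted p = 0.0128), with 2 control values below the floor, so that the size is not exact. Of 14 fatty acid synthesis genes, the neighboring pathway under the related factor SREBP1, 4 fell and 0 rose in MEKi/CD40 (9.37% and 5.5% of all probe sets). In MEKi 4 fell and 1 rose (3.83% and 3.99%), and the median was -0.33 in both groups. The fallen in MEKi/CD40 were Fads2 (-3.23, adjusted p = 0.00663), Fads1 (-1.75, adjusted p = 0.00967), Elovl6 (-1.69, adjusted p = 0.0408) and Elovl5 (-0.40, adjusted p = 0.00149). MEKi/CD40 tumor 2, the highest in adipocyte markers, stood far above its group in some of the 14 genes. It had 12.55 for Fasn and 15.54 for Scd1, against 10.35 to 10.98 and 10.58 to 13.02 in the other MEKi/CD40 tumors.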

How the data were processed

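The deposited log2 signals of 18 Affymetrix Mouse430_2 arrays, 1 per tumor, were used. The authors labeled from 200 ng of total RNA per tumor and made the deposited log2 values by robust multichip averaging (RMA) in Chipster (no version stated). Values lay between 2.16 and 16.34, with 34.4% at the minimum. RMA alone does not usually leave so many values at 1 level, and no source names the step behind it, so low signals carry no order and fold sizes of dim genes are not exact. Per array, 50.3 to 51.6% of values were below 3, and within-group correlations were 0.987 to 0.998. The number of arrays limits the precision.

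Of 45101 probe sets, 64 control sets were left out. Of the 45037 tested, 34945 had 1 gene symbol in the platform annotation, 932 several and 9160 none, and no gene is named from the last 2 kinds. Samples were grouped by their labels. Each test was a limma 3.58.1 linear model (R 4.3.3), fitted for each pair of groups compared and, for the interaction, over all 18 arrays, with no filter and Benjamini-Hochberg adjustment over all probe sets (threshold 0.05). On simulated arrays the fits were tested for recovery of known differences. Values are given for every gene called in either inhibitor group against control and for the leading gene of each arm by p. Other sterol genes are counted, with the 6 of smallest p named. The genes, lists and rules were chosen with earlier results of these data known. Alternatives were cyclic loess, a filter (log2 of at least 6 on at least 4 arrays), the mean over probe sets, 1 fit of all arrays, title numbers, replicate number, adipocyte signal and leaving out each array in turn.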

Additional observations from a re-analysis of the deposited data

Results flagged for a closer look

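Of 124 groups of 4 or 5 values (31 genes in 4 treatment groups), 4 held a tumor far from the rest of its group, where chance alone would give about 1 in 20, or 6.2. Abcg1, the exporter of cholesterol to lipoprotein particles, was 10.62 in MEKi/CD40 tumor 3 and 9 to 9.27 in the other MEKi/CD40 tumors. Ggps1 was 9.17 in MEKi tumor 5 and 9.59 to 9.72 in the other MEKi tumors. Ebp was 10.63 in MEKi tumor 1 and 10.4 to 10.44 in the other MEKi tumors. Npc1 was 9.27 in control tumor 1 and 9.5 to 9.56 in the other control tumors. The last 3 lay within 0.5 log2 units of their groups.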

How the results depend on the processing

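Counts below are of the 31 genes called against 20 (MEKi/CD40 against control), 11 (MEKi against control), 0 (anti-CD40 against control), 16 (MEKi/CD40 against anti-CD40), 0 (MEKi/CD40 against MEKi) and 0 (interaction) as reported. With the number series as a block 6 genes were called in MEKi/CD40 and 5 in MEKi against control (8.57% and 6.07% of all probe sets). Within the low series 0 and 0 were called (1.58% and 0.102%). Chosen after seeing the data were the high series alone, with 0 in MEKi (0.02%), and the 3 number runs as a block. The runs gave 0 in MEKi and 0 in the interaction (0.0688% and 0.0355%). For MEKi/CD40 against control they are the same fit as the number series. The filter on low values kept 28 of the 31 genes. It gave 17 calls in MEKi against control, 11 in MEKi/CD40 against MEKi and 1 in the interaction. Of the probe sets left, 33.7%, 16.6% and 10% were called in that order. All 18 arrays in 1 fit gave 12 in MEKi/CD40 against MEKi (9.52% of all probe sets). Without the 3 arrays highest in adipocyte markers the counts were 8 against anti-CD40, 3 against MEKi and 8 in the interaction (0.904%, 0.842% and 2.29%). With the adipocyte mean as a covariate they were 4 against MEKi and 2 in the interaction (0.56% and 2.52%). Leaving out each tumor in turn gave 16 to 22 calls in MEKi/CD40 against control (10.5 to 17.3% of all probe sets). It gave 1 to 14 in MEKi against control (3.73 to 7.39%) and 3 to 17 in MEKi/CD40 against anti-CD40 (6 to 14.6%). In MEKi/CD40 against MEKi it gave 0 to 1 (0.0644 to 1.89%) and in the interaction 0 to 1 (1.37 to 3.18%). In anti-CD40 against control it gave 0 (0 to 0.0133%). The other planned settings kept counts within 1.5 times. Deviations of same-numbered replicates from their groups correlated at -0.37 to 0.30 over 21 pairs. This gave no sign of pairing but cannot exclude it with so few tumors, and the numbers were not used as pairs. With a replicate block 0, 0, 0, 1, 0 and 0 genes were called in the order of the first sentence of this section.

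Of the values of single genes under all settings, 3189 kept side and direction, 313 lost and 106 gained a call, and 1 reversed: Ggps1 in MEKi/CD40 against anti-CD40 was -0.0375 as the mean over its probe sets. A change of sign between values called in neither setting was not counted. All 33 probe sets of the 16 fallen genes with any value above the floor were lower in MEKi/CD40 than in control, 29 of them called. Both counts include the 16 probe sets that stood for these genes, which were lower and called by the choice of genes. No value came from the number series for MEKi/CD40 against anti-CD40, both in the low series but in different runs, from the 3 runs for any comparison but those given, or from leaving out adipocyte-rich tumors in MEKi against control, which held none. The cause of the lost calls was not tested. Signals below the floor limit Tm7sf2.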
